A study of Mus musculus with 5 samples.

Results

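The 10 genes Klf15, Zbtb16, Fkbp5, Tsc22d3, Sgk1, Klf9, Ypel3, Txnip, Irs2 and Ddit4 were followed in sorted intestinal epithelial cells of fasted and refed mice, as genes that respond to glucocorticoids or to FoxO transcription factors during fasting. They are 10 of the 22042 genes in the table. The genes were chosen by measured values, namely their refed against fasted levels within each sorted population, so those levels are given as a description with no test. The mice carried Cck-Cre and the reporter R26-LSL-tdTomato on a C57Bl/6J background and were 6 to 8 weeks old. Cells that have expressed Cck, the gene of the gut hormone cholecystokinin, stay red in these mice, and tdTomato+ (CCK+) and tdTomato- (CCK-) cells were sorted from the epithelium of the small intestine. Mice A, B and F were taken after an overnight fast. Mice C, D and E were given the liquid diet Ensure after theirs. The letter in a library's name was taken as the mouse. On this reading each mouse gave 1 CCK+ and 1 CCK- library, which makes 4 groups of 3 libraries. There was no group fed without a preceding fast, and the time of day at collection and the length of refeeding are not given in the sources used here.

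During fasting the adrenal gland releases glucocorticoids, which enter cells and bind the glucocorticoid receptor (Nr3c1), a transcription factor held ready in the cytoplasm by chaperones. At the same time insulin is low, the kinase Akt is less active, and FoxO factors stay in the nucleus, where they bind DNA at their own motif. After a meal, insulin signaling sends FoxO factors out of the nucleus. The intestinal epithelium is a target of both signals, and it also makes glucocorticoids locally. Some genes on the list also answer to other signals, such as glucose for Txnip and cell stress for Ddit4.

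The sort separated the populations: all 10 enteroendocrine markers, Cck among them, were called higher in CCK+ libraries, and their summed level was 80270 to 264314 normalized counts in CCK+ against 1366 to 2785 in CCK- libraries. The CCK+ libraries nonetheless held other cells. The 10 enterocyte markers summed to 231414 to 517045 in CCK+ and 580160 to 764707 in CCK- libraries. The 11 measured lymphocyte markers, of which 10 were called higher in CCK+ libraries, summed to 4933 to 11057 in CCK+ and 529 to 1240 in CCK- libraries. Marker sums of the CCK+ libraries also differed between states. The enteroendocrine sums were 80270 to 166757 in fasted and 207071 to 264314 in refed mice. None of these 10 markers was called between states (4 were higher at an unadjusted p under 0.05, limma). The enterocyte sums were 321308 to 517045 in fasted and 231414 to 342254 in refed mice, ranges that overlap. Of these 10 markers 1 was called lower after refeeding. The CCK- libraries differed too, with sums of the 6 cycling or crypt markers of 759 to 1180 in fasted and 1630 to 2243 in refed mice, where Mki67 and Top2a were called higher. The part of these differences in the results below was not tested. In bulk samples such as these, fewer cells of a type and less RNA per cell cannot be told apart.

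The promoters of Txnip, Sgk1 and Klf9 are printed first because they show where the motifs of these pathways lie in the genes that follow. The window ran from 250 bases before to 50 after each start in RefSeq (GRCm38.p6), and 9 of the 10 genes had at least 1 entry, 16 in all. Zbtb16 had none. The glucocorticoid response element was searched as GNACA, 3 free bases and TGTNC, the FoxO motif as GTAAACA, and the carbohydrate response element, to which the glucose-responsive factor encoded by Mlxipl binds, as 2 copies of CACGNG with 5 free bases between them, each on both strands. The glucocorticoid response element was present in 0.475% of all 32851 promoters, the FoxO motif in 3.65% and the carbohydrate response element in 0.0487%. Among the 16 promoters of the 10 genes, 2 held the first (Sgk1 and Txnip), 3 the second (Klf9, Txnip and Ypel3) and 1 the third (Txnip). Txnip had the only promoter of the 32851 with all 3. Shown are the 200 bases before the start, 5′ to 3′ on the strand of the gene, with the matches in capitals. In Txnip these are, from left to right, the glucocorticoid, FoxO and carbohydrate motifs, in Sgk1 the glucocorticoid motif and in Klf9 the FoxO motif. The stretches are chr3:96557757-96557956 (Txnip, plus strand), chr10:21993690-21993889 (Sgk1, plus strand, 1 of its 6 starts) and chr19:23141026-23141225 (Klf9, plus strand).
Txnip: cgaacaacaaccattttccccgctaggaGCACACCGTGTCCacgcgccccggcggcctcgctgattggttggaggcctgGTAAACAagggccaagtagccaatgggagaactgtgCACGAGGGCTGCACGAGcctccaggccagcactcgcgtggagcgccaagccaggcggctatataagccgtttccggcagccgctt
Sgk1: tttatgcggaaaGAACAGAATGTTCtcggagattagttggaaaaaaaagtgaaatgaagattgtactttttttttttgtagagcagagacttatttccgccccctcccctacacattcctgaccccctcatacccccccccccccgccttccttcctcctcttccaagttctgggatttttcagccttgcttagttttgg
Klf9: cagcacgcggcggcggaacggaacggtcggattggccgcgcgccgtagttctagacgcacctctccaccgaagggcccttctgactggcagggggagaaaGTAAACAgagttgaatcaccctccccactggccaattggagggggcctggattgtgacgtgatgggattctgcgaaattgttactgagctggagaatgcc
The match in Txnip closest to the start lay 85 to 69 bases before it, and the match in Sgk1 lay 188 to 176 bases before that start. In Ypel3 the FoxO motif lay 26 to 32 bases after the start. No match was found in the windows of Klf15, Fkbp5, Tsc22d3, Irs2 and Ddit4. A match is a run of letters and not evidence of binding, and no match says only that these letters are not in the window.

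Refeeding separated the libraries for some of the genes and not for others. For 6 of the 10, Klf15, Zbtb16, Fkbp5, Sgk1, Ypel3 and Irs2, each refed library lay below each fasted library in both CCK+ and CCK- cells. Tsc22d3 did so in CCK+ cells, and Klf9, Txnip and Ddit4 in neither population. Over all genes, refed libraries lay below all fasted ones for 8.61% in CCK+ and 8.18% in CCK- cells, and since the genes were chosen on this contrast nothing is read from the comparison. Ddit4 had the higher mean in refed mice in both populations. Txnip had it in CCK- cells, and in CCK+ cells its means were 2524 in fasted and 2429 in refed mice. The median refed minus fasted difference of the 10 genes was -0.70 on the log2(normalized count + 1) scale in CCK+ and -1.22 in CCK- cells, where the medians over all genes were 0.01 and 0. The plots of single libraries and of these differences show the genes side by side.

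**Figure D1:**
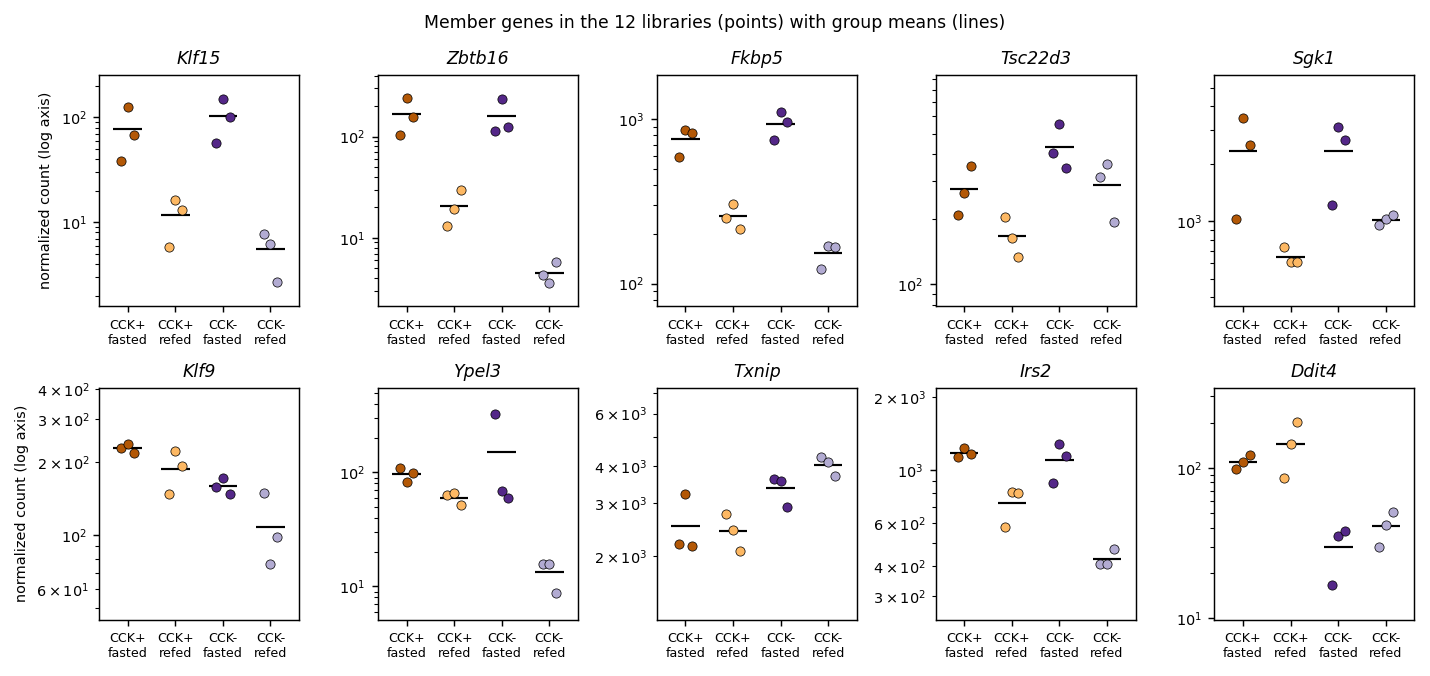
Normalized counts (log axis) of the 10 genes in the 12 libraries, as points, with the mean of each group of 3 as a line, for CCK+ and CCK- cells of fasted and refed mice. Klf15, Zbtb16, Fkbp5, Sgk1, Ypel3 and Irs2 have all refed points below all fasted points in both populations, whereas Txnip and Ddit4 do not.

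**Figure D2:**
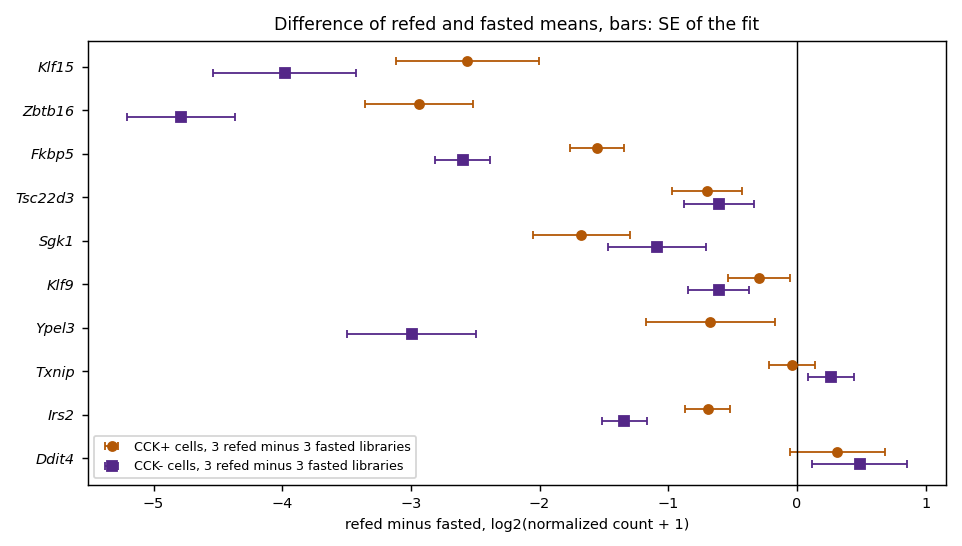
Difference of refed and fasted means on the log2(normalized count + 1) scale (horizontal axis) for the 10 genes, in CCK+ cells (circles) and CCK- cells (squares), with the SE of the fit as bars and 3 libraries in each mean. The differences run from -4.79 for Zbtb16 in CCK- cells to 0.49 for Ddit4 in CCK- cells.

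Zbtb16 encodes PLZF, a zinc finger repressor that glucocorticoids induce in many cells and that is also known from innate-like lymphocytes. In CCK+ cells it measured 103, 242 and 156 normalized counts in fasted mice A, B and F and 13.1, 19.2 and 29.7 in refed mice C, D and E. In CCK- cells it measured 114, 234 and 126 in fasted and 4.28, 3.57 and 5.75 in refed mice. The fasted ranges of the populations overlapped, whereas all refed CCK+ libraries lay above all refed CCK- libraries. The refed mean was 12.4% of the fasted mean in CCK+ and 2.87% in CCK- cells, and the log2 differences were -2.94 and -4.79 (SE 0.42), the largest of the 10 genes in both populations.

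Klf15 encodes a Krüppel-like factor that is known to promote amino acid breakdown and gluconeogenesis in the fasted liver. It measured 38.2, 125 and 68.0 in fasted and 5.75, 16.4 and 13.1 in refed CCK+ libraries. In CCK- libraries it measured 57.5, 151 and 102 in fasted and 7.68, 6.25 and 2.68 in refed mice. Mouse A was the lowest and mouse B the highest of the fasted mice in both populations. The refed mean was 15.3% of the fasted mean in CCK+ and 5.36% in CCK- cells, and the log2 differences were -2.56 and -3.98 (SE 0.56).

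Fkbp5 encodes a co-chaperone of the glucocorticoid receptor that the receptor itself induces and that lowers its affinity for the hormone. The fasted CCK+ libraries held 591, 857 and 828 and the refed ones 250, 306 and 215. The CCK- libraries held 746, 1104 and 959 in fasted and 124, 170 and 166 in refed mice. The fasted level was thus 2.95-fold the refed level in CCK+ and 6.11-fold in CCK- cells, with log2 differences of -1.55 and -2.60 (SE 0.21). The gap between the groups exceeded the range within each.

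Sgk1 encodes a kinase that raises sodium uptake and answers to glucocorticoids and mineralocorticoids. It measured 1031, 3453 and 2517 in fasted and 736, 607 and 613 in refed CCK+ libraries. In CCK- libraries it measured 1213, 3134 and 2667 in fasted and 949, 1032 and 1071 in refed mice. Mouse A, at 1031 and 1213, lay far below mice B and F in both populations and close to the refed level in CCK- cells. The SD of the fasted groups was 1221 in CCK+ and 1002 in CCK- cells, and that of the refed groups 72.6 and 62.4. The log2 differences were -1.68 in CCK+ and -1.09 in CCK- cells (SE 0.38), so that Sgk1, unlike Klf15, Zbtb16 and Fkbp5, had the larger value in CCK+ cells.

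Tsc22d3 encodes GILZ, a leucine zipper protein that carries anti-inflammatory effects of glucocorticoids. The CCK+ libraries held 209, 264 and 352 in fasted and 205, 164 and 134 in refed mice, which leaves a gap of only a few counts between the groups. The CCK- libraries held 405, 553 and 347 in fasted and 314, 361 and 194 in refed mice, and the groups overlapped. The log2 differences were -0.70 and -0.61 (SE 0.27), the latter -0.34 without the library of refed mouse E.

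Klf9 encodes another Krüppel-like factor that glucocorticoids induce in many tissues. It measured 228, 238 and 217 in fasted and 148, 222 and 193 in refed CCK+ libraries. In CCK- libraries it measured 158, 172 and 148 in fasted and 149, 76.3 and 98.5 in refed mice. Only 1 refed library lay within the fasted range in each population, mouse D among CCK+ and mouse C among CCK- libraries. The log2 differences were -0.30 and -0.61 (SE 0.24), small beside those of Klf15. The first was -0.07 on rescaling to 1 total and -0.14 without CCK+ refed mouse C, and the second -0.39 without CCK- refed mouse D.

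Irs2 encodes an adaptor of the insulin receptor and is a known FoxO target. The fasted CCK+ libraries held 1130, 1225 and 1162 (mean 1172 ± 48.5, SD, n = 3), and the refed ones 580, 811 and 804. The CCK- libraries held 882, 1283 and 1140 in fasted and 408, 409 and 471 in refed mice. The refed mean was 62.4% of the fasted mean in CCK+ and 39.0% in CCK- cells, and the log2 differences were -0.70 and -1.34 (SE 0.17). Irs1, the related adaptor, differed far more between the populations, with a mean of 246 in CCK+ and 7.27 in CCK- libraries (log2 difference 4.94, adjusted p = 3.16e-08 by limma).

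Ypel3 belongs to the yippee-like family of small nuclear proteins. It measured 110, 81.9 and 98.5 in fasted and 63.2, 65.3 and 52.0 in refed CCK+ libraries. In CCK- libraries it measured 324, 68.8 and 59.4 in fasted and 15.7, 15.7 and 8.69 in refed mice. The CCK- library of fasted mouse A stood apart at 324, and in the same mouse the CCK+ library, at 110, did not. The log2 differences were -0.67 in CCK+ and -3.00 in CCK- cells (SE 0.50), and the latter was -2.22 without that library.

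Txnip encodes an inhibitor of thioredoxin that also curbs glucose uptake, and its transcription is known to respond to glucose. The CCK+ libraries held 2197, 3218 and 2156 in fasted and 2758, 2446 and 2084 in refed mice, and the groups overlapped. The CCK- libraries held 3612, 3581 and 2917 in fasted and 4301, 4115 and 3701 in refed mice, so that each refed library lay above each fasted one, as it did for 8.05% of all genes. The log2 differences were -0.04 and 0.27 (SE 0.18), the first of which was 0.19 when libraries were rescaled to 1 total and -0.14 to 0.15 without 1 library.

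Ddit4 encodes REDD1, which restrains the growth kinase mTOR and is induced by stress and by glucocorticoids. It measured 97.8, 109 and 121 in fasted and 86.1, 145 and 200 in refed CCK+ libraries. In CCK- libraries it measured 16.6, 35.2 and 37.9 in fasted and 30.0, 41.7 and 50.7 in refed mice. The groups overlapped in both populations, and the log2 differences were 0.31 and 0.49 (SE 0.37). Without 1 library they ranged from 0.03 (without CCK+ refed mouse E) to 0.64 (without CCK+ refed mouse C) and from 0.12 (without CCK- fasted mouse A) to 0.69.

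Of the 8 genes with a negative difference in both populations, 6 had the larger one in CCK- cells (Klf15, Zbtb16, Fkbp5, Klf9, Ypel3 and Irs2) and 2 in CCK+ cells (Sgk1 and Tsc22d3). Because both differences were used to choose the genes, they are set side by side without a test. The share of all genes with the larger difference in CCK- cells was not computed. The order also depends on scale: rescaling to 1 total moved the median of all genes from 0.01 to 0.20 in CCK+ and from 0 to 0.01 in CCK- cells. Tsc22d3 then changed side (-0.48 in CCK+ and -0.53 in CCK- cells), whereas the other genes kept theirs. It also changed side without CCK+ fasted mouse F (-0.51 and -0.61). In the test of a different change between CCK+ and CCK- cells over all genes, 1 gene was called (0.00454%), the interferon-inducible Gvin1, which is not on the list.

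The comparison of CCK+ with CCK- cells over both states was not used to choose the genes and could be tested. By limma with Benjamini-Hochberg adjustment over all 22042 genes, 5 of the 10 were called higher in CCK+ libraries (Ddit4, Zbtb16, Ypel3, Klf9 and Irs2), 2 were called lower (Tsc22d3 and Txnip) and 3 were not called. This fit did not pair the CCK+ and CCK- libraries of a mouse. With mouse as a block, only the call of Sgk1 changed among the 10. Over all genes 19.6% were called higher and 14.1% lower, so that calls in this contrast were common. Rescaling the libraries to 1 total moved the median of all genes in this contrast from 0.09 to 0.35 on the log2 scale, and the values below are on the deposited scale unless said otherwise. The plot of within-mouse differences shows the 6 mice of each gene.

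**Figure D3:**
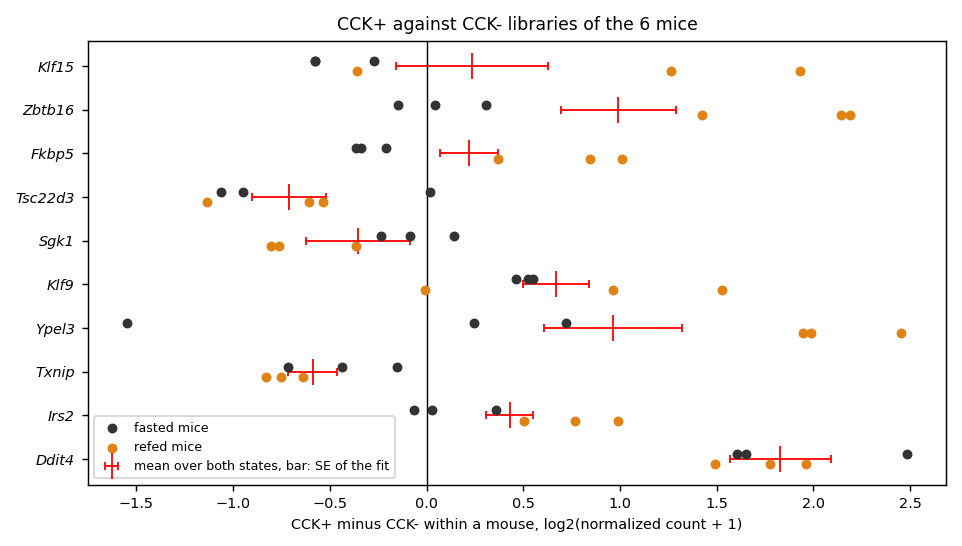
CCK+ minus CCK- difference within each of the 6 mice on the log2(normalized count + 1) scale (horizontal axis) for the 10 genes, with fasted mice in black, refed mice in orange, and the mean over both states with the SE of the fit in red. Ddit4 is higher in the CCK+ library of all 6 mice and Txnip lower in all 6. The orange points of Zbtb16, Fkbp5, Ypel3 and Irs2 lie to the right of the black ones, and those of Sgk1 to the left. The share of all genes with such a separation was not computed, and the values of both states were used to choose the genes.

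Ddit4 had the clearest difference between the populations. It averaged 127 in CCK+ and 35.4 in CCK- libraries, a log2 difference of 1.83 ± 0.26 (SE, adjusted p = 7.93e-05), and it was higher in CCK+ cells of 6 of 6 mice. The difference was 1.92 in fasted and 1.74 in refed mice, of like size in both states. It was called under each of the 21 alternatives run, with adjusted p of at most 0.0373.

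Txnip was lower in CCK+ cells of 6 of 6 mice, with a log2 difference of -0.59 ± 0.13 (SE, adjusted p = 0.00215). Its direction held under each alternative, but the call was lost when libraries were rescaled to 1 total (log2 difference -0.19, adjusted p = 0.215) and in fasted libraries alone (adjusted p = 0.262). Tsc22d3 was lower in CCK+ cells of 5 of 6 mice (log2 difference -0.71 ± 0.19, SE, adjusted p = 0.00945), and this call too was lost on rescaling to 1 total (-0.32, adjusted p = 0.228), as in fasted (adjusted p = 0.211) and in refed libraries alone (adjusted p = 0.13). Klf9 was higher in CCK+ cells of 5 of 6 mice, with a log2 difference of 0.67 ± 0.17 (SE, adjusted p = 0.00628), and the call was lost in refed libraries alone (adjusted p = 0.109).

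For Zbtb16, Irs2 and Ypel3 the difference was larger in refed mice. Zbtb16 had a log2 difference between CCK+ and CCK- cells of 0.99 ± 0.30 (SE, adjusted p = 0.0178), made of 0.07 in fasted and 1.92 in refed mice. The call of Zbtb16 was lost without the CCK+ library of refed mouse E (adjusted p = 0.0525) or the CCK- library of fasted mouse A (adjusted p = 0.055), with a pseudocount of 10 (adjusted p = 0.115) and in fasted libraries alone (adjusted p = 0.974). Irs2 had a difference of 0.43 ± 0.12 (SE, adjusted p = 0.0135), made of 0.11 and 0.75, and the call was lost in fasted libraries alone (adjusted p = 0.719) and with no trend (adjusted p = 0.0552). Ypel3 had a difference of 0.97 ± 0.36 (SE, adjusted p = 0.0498), made of -0.19 and 2.13, and its call was lost in 11 of the 12 fits that left out 1 library (adjusted p up to 0.143) and kept only without the CCK- library of fasted mouse A. Within the fasted mice the difference of Ypel3 was -1.55 in mouse A, 0.25 in B and 0.72 in F, so that its negative fasted value rested on mouse A. Fkbp5 showed the same order, with -0.30 in fasted and 0.74 in refed mice, and was not called over both states (0.22 ± 0.15, SE, adjusted p = 0.303), but was on rescaling to 1 total (0.61, adjusted p = 0.00397). The fasted and refed values of a gene carry the choice of the genes with them and were not tested against each other. Beside them stand the lymphocyte markers, whose sums in CCK+ libraries were 4933 to 11057 in fasted and 7249 to 8931 in refed mice, and the enterocyte markers given above. Their part in these levels was not tested.

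Klf15 (0.23 ± 0.39, SE, adjusted p = 0.69) and Sgk1 (-0.35 ± 0.27, SE, adjusted p = 0.357) were not called between the populations. Klf15 had means in the order of Zbtb16 and Fkbp5, with -0.47 in fasted and 0.94 in refed mice. The refed mice did not agree, with -0.36 in C, 1.26 in D and 1.93 in E. Refed counts of this gene were low, and with a pseudocount of 10 its difference over both states was 0.02. Sgk1 was lower in CCK+ cells of 5 of 6 mice, and in the fit with mouse as a block its log2 difference of -0.35 passed the test (adjusted p = 0.0183), whereas on rescaling to 1 total it was 0.04 (adjusted p = 0.904). Its spread between mice was large and was shared by both libraries of a mouse.

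This sharing within mice was looked at for all 10 genes, as the deviation of each library from the mean of its group. Over the 6 mice the deviations of the CCK+ and CCK- libraries had a Pearson r of 0.95 for Sgk1, 0.81 for Zbtb16, 0.74 for Ypel3, 0.69 for Ddit4, 0.64 for Txnip and 0.61 for Fkbp5. It was 0.37 for Irs2, 0.33 for Klf15 and 0.19 for Tsc22d3, and -0.90 for Klf9. These are descriptions over 6 points that share the group means taken out. In fasted mouse A, 8 of the 10 genes lay below the group mean in CCK+ and 8 in CCK- cells, and in fasted mouse B 2 and 1 did. The share of all genes below the mean was not computed, so these counts are not read as particular to the 10 genes. The whole libraries of mice A and B also differed, with sums of 7600394 and 9868241 normalized counts in CCK+ cells. In CCK- cells the sums were 9972318 and 10965512. For Sgk1 mouse A deviated by -1.01 in CCK+ and -0.83 in CCK- cells and mouse B by 0.73 and 0.53 on the log2 scale. Ypel3 went the other way in mouse A, with deviations of 0.19 and 1.55.

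**Figure D4:**
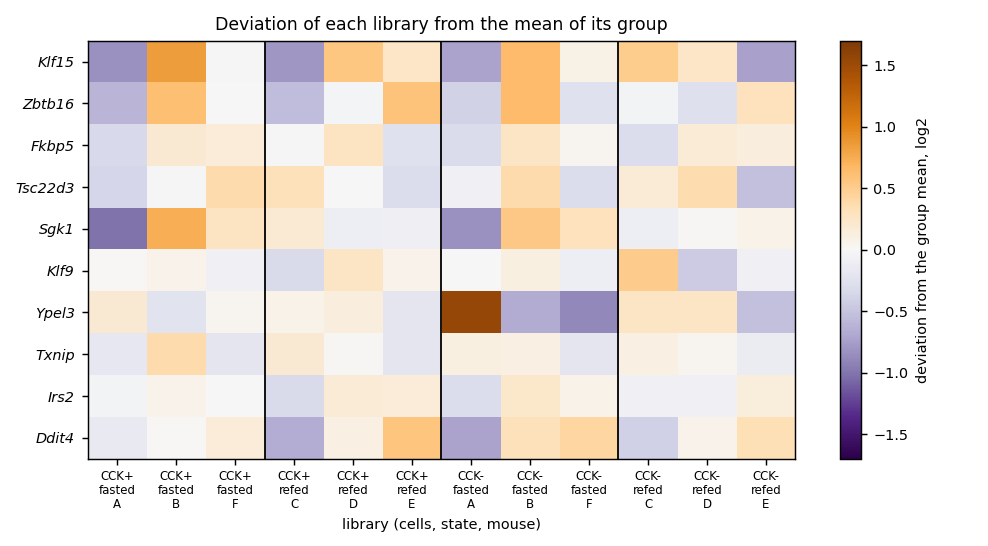
Deviation of each of the 12 libraries (columns, by cells, state and mouse) from the mean of its group on the log2 scale (color) for the 10 genes (rows). Fasted mouse A is below and fasted mouse B above the mean in both CCK+ and CCK- libraries for Klf15, Zbtb16, Fkbp5 and Sgk1, and Ypel3 stands out in the CCK- library of mouse A.

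The genes also varied with each other. Over the 12 libraries, with group means removed, the 45 pairs of genes had a median Pearson r of 0.32, and 30 were above 0. Pairs of a listed gene with any of 13517 genes of a mean of at least 10 had a median of 0.00, and 50.4% were above 0. The 45 pairs are made of 10 genes and are not independent of each other. The highest value was 0.89 for Irs2 with Ddit4, followed by 0.75 for Fkbp5 with Sgk1, 0.75 for Zbtb16 with Irs2 and 0.65 for Klf15 with Zbtb16. The lowest values were those of Ypel3, at -0.77 with Ddit4, -0.72 with Irs2 and -0.68 with Sgk1, whereas Ypel3 with Txnip (0.24), Tsc22d3 (0.16) and Klf9 (0.02) was above 0. In the CCK- library of fasted mouse A, Ypel3 deviated by 1.55 from its group mean, and Ddit4, Irs2 and Sgk1 by -0.73, -0.30 and -0.83. How far the negative values of Ypel3 rest on that library was not tested. The points share mice, since each mouse gave 2 of the 12 libraries.

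To find genes with a like pattern, the mean profile of the 10 genes over the 12 libraries, centered within CCK+ and within CCK- cells and scaled, was compared with 8545 other genes of a mean of at least 50 in both populations. Among the listed genes themselves, Klf15 followed the profile most closely (r = 0.99), then Zbtb16 (0.97), Fkbp5 (0.96), Irs2 (0.94) and Sgk1 (0.87), whereas Txnip (-0.16) and Ddit4 (-0.33) did not follow it. Each listed gene is part of the mean it was compared with, which raises its r, unlike that of the other genes. The 10 genes most like the profile were Serinc3 (0.98), Retreg1 (0.98), Pdk4 (0.97), Tet3 (0.97), Ubald2 (0.97), Fut4 (0.96), Erbb3 (0.96), Mapk6 (0.96), Eif4ebp3 (0.96) and Tnrc6a (0.96). Fut4, a fucosyltransferase, had means of 345 in fasted and 88.2 in refed CCK+ libraries and of 684 and 117 in CCK- libraries. Pdk4, the kinase that turns off pyruvate dehydrogenase in fasting, had means of 940 and 387 in CCK+ and 1568 and 482 in CCK- libraries. Retreg1, a receptor for autophagy of the endoplasmic reticulum, had means of 863 and 409 in CCK+ and 1394 and 317 in CCK- libraries. These genes were ranked by the profile of genes chosen on the same contrast, so the values are a description.

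The wider pathway was read from 5 lists that leave out the 10 genes. These lists were chosen with earlier results of these data known, so their calls are not an independent test of the pathway. Over all genes, 1.31% were called higher and 1.23% lower after refeeding in CCK+ cells, and 0.708% higher and 0.526% lower in CCK- cells. At an unadjusted p under 0.05 (limma) there were 3736 of the 22042 genes in CCK+ and 2635 in CCK- cells, in either direction. Unadjusted counts of the lists are to be set beside these. The plot of the wider lists shows each gene.

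**Figure D5:**
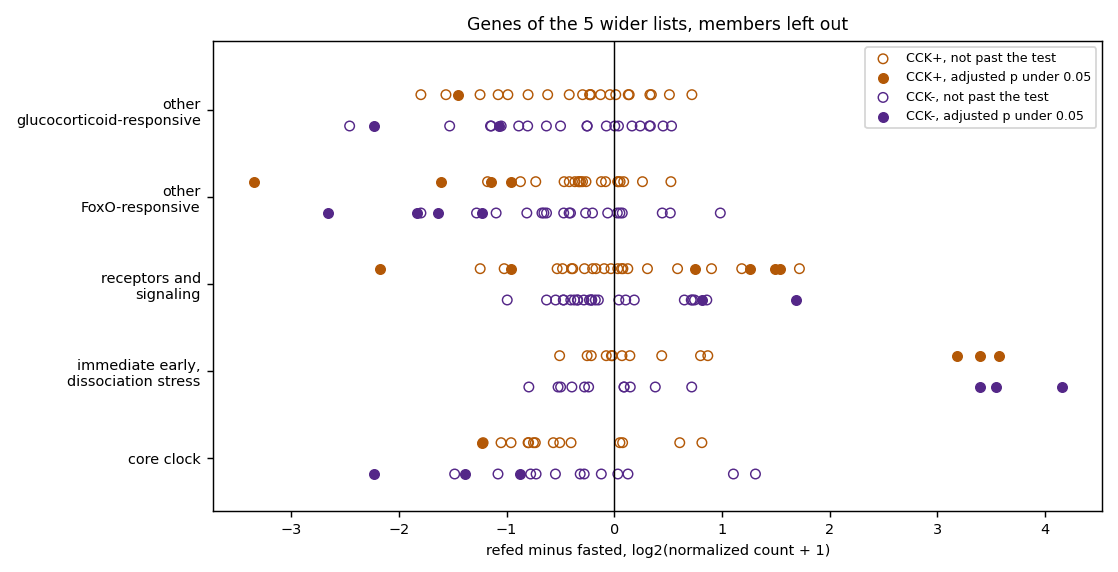
Refed minus fasted difference on the log2(normalized count + 1) scale (horizontal axis) for each gene of the 5 wider lists (rows), in CCK+ (orange) and CCK- cells (purple), filled where the adjusted p was under 0.05. The filled points of the glucocorticoid, FoxO and clock lists lie below 0 and those of the stress list above 3.

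Of 22 other glucocorticoid-responsive genes, 1 was called lower and none higher in CCK+ cells (5 and 1 at an unadjusted p under 0.05, limma), and 2 lower and none higher in CCK- cells (8 and 0). The median difference was -0.22 in CCK+ and -0.38 in CCK- cells. Mertk, a receptor for the uptake of dying cells, fell by 1.45 on the log2 scale in CCK+ (adjusted p = 0.00388) and by 1.07 in CCK- cells (adjusted p = 0.0224). Per1, a clock gene that glucocorticoids induce directly, fell by 2.23 in CCK- cells (adjusted p = 0.000603), from a mean of 538 to 111. The calls of Per1 held in all 12 fits without 1 library, that of Mertk in CCK+ cells in 11 and that in CCK- cells in 4.

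Of 23 other FoxO-responsive genes, 4 were called lower and none higher in each population (5 and 1 in CCK+, and 10 and 2 in CCK- cells, at an unadjusted p under 0.05, limma), with median differences of -0.32 in CCK+ and -0.47 in CCK- cells. Pck1, the enzyme that commits carbon to gluconeogenesis, fell by 3.35 in CCK+ cells (adjusted p = 0.00172), from a mean of 5875 to 615, and fell by 2.66 in CCK- cells (adjusted p = 0.0028), from 10705 to 1755. Erbb3, a growth factor receptor, fell from a mean of 3210 to 1034 in CCK+ (adjusted p = 0.00283) and fell by 1.83 in CCK- cells (adjusted p = 0.000409). Ccng2, a cyclin tied to cell cycle arrest, fell by 1.15 (adjusted p = 0.00596), and Insr, the insulin receptor, by 0.96 (adjusted p = 0.0191), both in CCK+ cells. Pdk4 fell by 1.64 (adjusted p = 0.0188) and Cited2, a transcriptional regulator, by 1.23 (adjusted p = 0.0331) in CCK- cells. The calls of Pck1 and Erbb3 held in all 12 fits without 1 library in both populations, whereas that of Insr held in 8 and those of Pdk4 and Cited2 in 2.

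Of 26 receptors and signaling components, 4 were called higher and 2 lower in CCK+ cells, and 2 higher and none lower in CCK- cells (4 and 5 at an unadjusted p under 0.05, limma). The glucocorticoid receptor gene Nr3c1 was not called, with means of 850 in fasted and 795 in refed CCK+ libraries and of 1070 and 917 in CCK- libraries. The mineralocorticoid receptor gene Nr3c2 fell by 2.17 in CCK+ cells (adjusted p = 0.00773), from a mean of 1193 to 312, a call that was lost in 4 of the 12 fits without 1 library. Chaperones of the steroid receptors were also on this list. Fkbp4, the co-chaperone that competes with the product of Fkbp5, rose by 1.54 in CCK+ cells (adjusted p = 0.00343), Ptges3 (p23) by 1.26 (adjusted p = 0.00343), and Hsp90ab1 rose from a mean of 4940 to 13837 in CCK+ (adjusted p = 0.00388) and from 2068 to 6711 in CCK- cells (adjusted p = 0.00136). In CCK- cells Fkbp4 (adjusted p = 0.0682) and Ptges3 (adjusted p = 0.0649) were not called. The heat shock genes Hsph1, Hspa1b and Hspa1a, given below with the stress list, were also called higher after refeeding in both populations. Whether the rises of the chaperones are part of that rise was not tested. Mlxipl, which encodes the glucose-responsive factor ChREBP, rose by 0.75 in CCK+ (adjusted p = 0.0107) and 0.82 in CCK- cells (adjusted p = 0.00783), beside the differences of -0.04 and 0.27 of Txnip.

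The remaining lists hold genes that respond to tissue handling and genes of the clock. Of 14 immediate early and dissociation stress genes, the heat shock genes Hsph1, Hspa1b and Hspa1a were called higher after refeeding in both populations and none was called lower (0 in CCK+ and 2 in CCK- cells at an unadjusted p under 0.05, limma). Hsph1 rose by 3.40 in CCK+ (adjusted p = 0.00343) and 4.16 in CCK- cells (adjusted p = 0.000409), whereas the calls of Hspa1a and Hspa1b were lost in 10 and 7 of the 12 fits without 1 library in CCK+ cells and in all 12 in CCK- cells. Of 15 clock genes, Nr1d1 was called lower in both populations (-1.23, adjusted p = 0.00388 in CCK+, and -0.88, adjusted p = 0.0287 in CCK- cells), and Per1 and Cry2 were called lower in CCK- cells. Cry2 fell by 1.38 (adjusted p = 0.0182), and its call held in 5 and that of Nr1d1 in CCK- cells in 3 of the 12 fits without 1 library. In fits of 1 population alone, with 6 libraries in place of 12, no gene of these lists was called in CCK+ cells (27 had an unadjusted p under 0.05, limma) and 1 in CCK- cells. The called heat shock genes were thus higher and the called clock genes lower after refeeding, and their part in the values of the 10 genes was not tested.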

How the data were processed

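Bulk RNA sequencing libraries of sorted CCK+ and CCK- cells were made with the Ovation RNA-Seq System V2. According to the authors, reads were trimmed (Trim Galore 0.6.7), quantified per transcript with Salmon 1.6.0 against the GRCm39 transcriptome, summed per gene with tximeta, and divided by DESeq2 normalization factors after removal of genes with at most a single count. The deposited signal values are these normalized counts. None of the non-zero values was whole (0%), so reads were not recovered and depth in reads is unknown. The 12 libraries summed to 7061155 to 11371114 normalized counts, with 16656 to 18855 genes above 0. The titles of all 4 bulk records say CCK+, but 2 have a CCK- cell type, which was followed here. The letter in a library's name was taken as the mouse: over 13517 genes, residuals of libraries with 1 letter correlated at 0.0773 to 0.124 and of other libraries of 1 state at -0.0826 to -0.0184. Group means were taken out, so positive values of the first kind make those of the second negative on average. Only the first range, of small values, bears on this reading. Whether reads were counted by strand is not given in the sources used here.

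All 22042 genes were fitted with limma 3.58.1 (R 4.3.3) on log2(normalized count + 1), with 1 mean per group, a mean-variance trend, 8 residual degrees of freedom, Benjamini-Hochberg adjustment and an adjusted p threshold of 0.05. This scale understates changes of low genes. Each group had 3 mice. Python 3.11.15, numpy, pandas and matplotlib were used for the rest. On simulated data of 22042 genes with 100 genes changed at each size, 37 were recovered at a log2 change of 1 and 72 at 2. The alternatives were pseudocounts of 0.5 and 10, a mean of at least 10, 2 rescalings, a mouse block, no trend, leaving out each library, and fits of 1 population or state. The members and lists were chosen with earlier results of these data known. Genes named beside the 10 are the called ones of each list, at most 8, the 10 of highest likeness, and marker sums. Irs1, Gvin1 and Nr3c1 were named after their values were seen. One list symbol, G6pc1, was matched by its older name, G6pc. The droplet library and comparisons by the authors were not used.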

Additional observations from a re-analysis of the deposited data

Results flagged for a closer look

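In the test of whether the change on refeeding differed between CCK+ and CCK- cells, Gvin1, an interferon-inducible GTPase gene outside the 10 genes, was the only one of 22042 past the threshold, with a difference of -6.55 on the log2 scale (adjusted p = 0.000161 by limma). It was listed at 0 in all 3 fasted CCK- libraries and at 219, 196 and 159 in the refed ones, against 107 to 499 in the CCK+ libraries. With a pseudocount of 10 it was not called. None of the 10 genes was tested for this difference, since both changes were used to choose them.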

How the results depend on the processing

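The 10 genes kept the sign of their refed minus fasted difference under the alternatives run, except Txnip in CCK+ cells, which changed sign on rescaling to 1 total (0.19), without CCK+ fasted mouse B (0.15) and without CCK+ refed mouse E (0.07). Between CCK+ and CCK- cells, 7 of the 10 were called, 5 to 6 without 1 library, and 2 in fasted libraries alone, where Ypel3 reversed (-0.19, with -1.55 in mouse A, 0.25 in B and 0.72 in F). In refed libraries alone Fkbp5 had a log2 difference of 0.74 and Sgk1 of -0.64. The calls of Tsc22d3 and Klf9 were lost there. Values of 1 state carry the choice of the genes with them, so calls in 1 state are not read as results about these genes. The mouse block changed 1 call among the 10, that of Sgk1. Over all genes, CCK+ against CCK- gave 7431 calls and 2169 in fasted libraries alone. Refed against fasted in CCK+ cells gave 561 calls, 119 with no trend, 103 (without CCK+ refed mouse D) to 876 (without CCK+ fasted mouse A) without 1 library, and 0 by limma in CCK+ libraries alone, where 3190 genes had an unadjusted p under 0.05. In CCK- cells it gave 272 calls, 66 with no trend, 63 in CCK- libraries alone and 79 (without CCK- refed mouse D) to 268 without 1 library. The difference of the changes gave 1 call, 0 with a pseudocount of 10 (1490 at an unadjusted p under 0.05), 2 with no trend and 1 to 6 without 1 library. Of the wider lists, 14 genes were called in CCK+ cells, 8 with no trend, 0 in CCK+ libraries alone (27 at an unadjusted p under 0.05) and 6 to 14 without 1 library, the lowest without CCK+ refed mouse D. In CCK- cells 13 were called, 5 with no trend, 1 in CCK- libraries alone and 6 to 11 without 1 library. Fits of 1 population hold 6 libraries in place of 12; the cause of the other shifts was not tested. The mouse block moved no count of calls by over 1.5 times.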

Other observations

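Other marker lists were read in the same libraries. Of 6 cycling or crypt markers, Mki67 was called higher after refeeding in CCK+ cells (log2 difference 0.96, adjusted p = 0.0344 by limma) and in CCK- cells (1.07, adjusted p = 0.0321), and Top2a in CCK- cells (1.40, adjusted p = 0.034). Their sums were 1368 to 2750 in fasted and 2720 to 3673 in refed CCK+ libraries. The Paneth sum ranged from 1658 to 15593 in fasted and from 6802 to 24858 in refed CCK+ libraries, with no marker called (4 higher in CCK+ and 1 higher in CCK- cells at an unadjusted p under 0.05, limma). Of 7 goblet markers, Agr2 was called higher after refeeding in CCK- cells. Of 10 enterocyte markers, 1 was called lower after refeeding in CCK+ cells. By limma no tuft, lymphocyte, myeloid, stromal or enteroendocrine marker was called between states, and at an unadjusted p under 0.05 there were 0, 1, 0, 1 and 4 in CCK+ and 0, 2, 0, 0 and 2 in CCK- cells. Of 7 measured myeloid markers, 4 were called higher in CCK+ cells, and 1 of 8 stromal, muscle and vessel markers was. The single measured erythroid marker was not called.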
